A study of Homo sapiens with 38 samples.

Results

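The genes of Mediator, TFIID and RNA polymerase II (Pol II) were examined as possible targets of the transcription factor Sp1. The 59 listed genes encode 33 subunits of Mediator, 14 of TFIID and 12 of Pol II, out of 20033 protein-coding genes in the annotation (GENCODE 44, hg38). They were chosen by the complex that their protein belongs to. A gene was called occupied in a peak list when a peak lay within 1000 bp of any of its annotated transcript starts, measured from the start to the nearest edge of the peak.

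Binding was measured by CUT&RUN, a method that uses antibody-tethered nuclease to cut out the DNA a protein sits on for sequencing. All cells were U2OS, a human osteosarcoma line, with V5 and Halo tags knocked in at both alleles of endogenous SP1 in 1 clone (the parental line). The derived lines carried, in addition, a doxycycline-inducible transgene with a FLAG tag at the AAVS1 locus. Every line, the parental one included, received 1 µg/ml doxycycline for 36 h, went through the sorting step that selects cells expressing a transgene, and stayed in doxycycline for a further 36 h. With 2 replicates each, the 19 pairings of a line with an antibody make up 38 samples.

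The transgenes included Sp1 WT (full length) and Sp1 DBD, which is Sp1 without its N-terminal disordered region. Sp1 DBD keeps the zinc finger DNA binding domain (DBD) and the short C-terminal disordered region. In EWS IDR-Sp1 DBD the disordered region of EWS replaces the N-terminal region of Sp1. Sp1 DBD Mutant is Sp1 with a truncated DBD. The DNA binding parts of LacI and CTCF were used alone (LacI, CTCF DBD) or behind the N-terminal disordered region of Sp1 (Sp1 IDR-LacI and Sp1 IDR-CTCF DBD). SNAPf-NLS is a nuclear tag alone. IDR in these names stands for intrinsically disordered region. Anti-FLAG reads the transgene. Endogenous Sp1 was read with a rabbit and with a mouse antibody against V5 in the parental, Sp1 WT, Sp1 IDR-LacI and Sp1 IDR-CTCF DBD lines. Each combination has 1 deposited list of peaks that were reproducible between its replicates. The lists therefore have no replicates of their own and no test between them was made. The rank and summit of each peak are given in both replicates as the measure of error, and genes were not treated as replicates.

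The lists held between 22 and 5151 peaks. The authors called peaks against merged control replicates, so lists share controls, and the read depth behind a list was not analysed here. Long lists occupy more genes of any kind, and the count in each list is therefore set beside the share of all protein-coding genes in it.

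Mediator is the large complex that carries signals from DNA-bound activators to Pol II, with a head, a middle and a tail held by the scaffold subunit MED14, and a separable kinase module. TFIID, made of the TATA-binding protein TBP and its associated factors (TAFs), recognizes the core promoter and seeds the preinitiation complex. Sp1 is a zinc finger activator that binds GC boxes, was among the first human activators studied in reconstituted transcription, and is known to contact TFIID through TAF4. The question here was whether promoters of the genes for this machinery were themselves occupied by Sp1, and by which of its parts.

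The promoters that follow were printed for the highest ranked gene of each complex in the Sp1 WT list and for the first listed gene of each complex that no list occupied, among the 45 of 59 genes with a promoter sequence in the RefSeq table used (GRCh38.p14, 250 bases before the start to 50 after it). They show that a GC box, GGGCGG read on either strand and in capitals, was present in promoters of both kinds of gene. POLR2I, which ranked above POLR2H, and MED8, which is listed before MED17, were not in that table.
MED16, gene occupied in Sp1 WT at another start (chr19:893138-893437, minus strand): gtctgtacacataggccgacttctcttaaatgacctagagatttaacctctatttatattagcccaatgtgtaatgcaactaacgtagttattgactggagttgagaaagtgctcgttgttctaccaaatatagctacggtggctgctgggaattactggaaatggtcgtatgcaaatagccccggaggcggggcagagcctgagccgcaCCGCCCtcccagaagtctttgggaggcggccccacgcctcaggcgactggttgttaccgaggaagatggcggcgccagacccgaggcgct
MED17, not occupied (chr11:93784032-93784331, plus strand): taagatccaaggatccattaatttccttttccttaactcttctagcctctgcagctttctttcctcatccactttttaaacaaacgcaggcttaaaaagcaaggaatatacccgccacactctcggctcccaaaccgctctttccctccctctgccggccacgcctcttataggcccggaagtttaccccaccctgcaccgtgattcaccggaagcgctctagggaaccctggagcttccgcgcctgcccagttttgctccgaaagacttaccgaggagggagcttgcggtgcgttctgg
TAF9, occupied (chr5:69369775-69370074, minus strand): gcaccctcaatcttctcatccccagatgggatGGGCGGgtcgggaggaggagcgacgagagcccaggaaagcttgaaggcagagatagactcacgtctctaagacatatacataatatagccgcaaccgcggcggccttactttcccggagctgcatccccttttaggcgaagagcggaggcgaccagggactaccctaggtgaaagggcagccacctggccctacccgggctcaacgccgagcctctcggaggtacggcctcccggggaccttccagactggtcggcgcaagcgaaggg
TAF3, not occupied (chr10:7818255-7818554, plus strand): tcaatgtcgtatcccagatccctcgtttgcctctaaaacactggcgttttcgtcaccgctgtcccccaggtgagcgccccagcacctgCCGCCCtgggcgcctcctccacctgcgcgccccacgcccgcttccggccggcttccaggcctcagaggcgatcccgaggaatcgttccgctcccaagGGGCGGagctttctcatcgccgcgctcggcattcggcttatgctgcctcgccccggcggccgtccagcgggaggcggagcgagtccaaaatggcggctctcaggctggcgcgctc
POLR2H, occupied (chr3:184361460-184361759, plus strand): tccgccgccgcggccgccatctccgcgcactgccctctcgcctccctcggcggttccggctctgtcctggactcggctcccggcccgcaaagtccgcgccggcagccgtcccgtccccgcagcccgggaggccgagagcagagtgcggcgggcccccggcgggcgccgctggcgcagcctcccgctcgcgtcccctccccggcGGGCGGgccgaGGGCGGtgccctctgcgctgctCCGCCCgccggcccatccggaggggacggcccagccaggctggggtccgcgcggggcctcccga
POLR2B, not occupied (chr4:56978646-56978945, plus strand): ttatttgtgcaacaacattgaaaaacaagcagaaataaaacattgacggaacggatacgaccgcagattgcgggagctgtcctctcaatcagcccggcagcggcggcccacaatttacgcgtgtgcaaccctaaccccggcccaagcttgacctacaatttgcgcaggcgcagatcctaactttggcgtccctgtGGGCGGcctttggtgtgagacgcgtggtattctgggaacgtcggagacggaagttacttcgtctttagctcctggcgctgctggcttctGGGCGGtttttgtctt

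The unoccupied TAF3 and POLR2B promoters each held 2 GC boxes, and the unoccupied MED17 promoter held 0. The TAF9 promoter, which a Sp1 WT peak overlapped, held 1, and that of POLR2H, also overlapped, held 3. The MED16 window held 1 but no Sp1 WT peak lay on it. The Sp1 WT peak of MED16 (chr19:871527-873480) was called by its edge, 461 bp from an alternative start. The Sp1 WT summits of TAF9 and POLR2H lay outside the windows as well.

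The DNA at the summits was therefore read from hg38 for 4 genes, which were chosen after their values had been seen, to show how different the sequences under a peak were. Each window is centred on the Sp1 WT summit and read along the gene. MED16 had the highest ranked peak of all 59 genes and no GC box, MED26 a low ranked peak with 7 GC boxes, MED20 was occupied in the largest number of lists, and POLR2I had the highest ranked peak of the Pol II genes. Capitals mark a repeated run of 12 bases in MED16, GC boxes in MED26 and MED20, and the CCAAT box in POLR2I.
MED16 summit (chr19:872897-873097, minus strand): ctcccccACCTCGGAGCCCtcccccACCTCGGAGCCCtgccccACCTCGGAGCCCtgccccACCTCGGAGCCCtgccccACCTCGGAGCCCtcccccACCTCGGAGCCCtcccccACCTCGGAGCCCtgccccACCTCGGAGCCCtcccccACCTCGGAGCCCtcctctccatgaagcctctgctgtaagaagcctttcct
MED26 summit (chr19:16628360-16628560, minus strand): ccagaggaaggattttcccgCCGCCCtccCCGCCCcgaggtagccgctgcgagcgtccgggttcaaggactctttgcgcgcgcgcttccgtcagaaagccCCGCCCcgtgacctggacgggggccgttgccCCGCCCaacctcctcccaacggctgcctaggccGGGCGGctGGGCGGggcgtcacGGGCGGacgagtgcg
MED20 summit (chr6:41921194-41921394, minus strand): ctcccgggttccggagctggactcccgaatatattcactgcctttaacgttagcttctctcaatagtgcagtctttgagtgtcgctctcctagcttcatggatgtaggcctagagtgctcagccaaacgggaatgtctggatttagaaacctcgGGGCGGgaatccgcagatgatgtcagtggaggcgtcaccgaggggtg
POLR2I summit (chr19:36115304-36115438, minus strand): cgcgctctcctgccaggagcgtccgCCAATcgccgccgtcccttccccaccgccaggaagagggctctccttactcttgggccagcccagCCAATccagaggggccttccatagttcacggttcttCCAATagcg

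The MED16 window was a tandem repeat, in which 84.7% of the bases were identical to the base 18 positions further on and the marked run occurred 9 times. For the other 3 windows the best such repeat, with periods of 5 to 60 bases tried, reached 33.5 to 40.4%. The summit of MED16 lay in an annotated exon of a MED16 transcript, at -1931 bp from the nearest annotated start and not at the promoter printed for MED16. That start, at position 871066 of chromosome 19, belongs to an alternative transcript, and the canonical start is at 893187. Sp1 WT did not occupy MED16 with canonical starts alone, nor with the 1000 bp limit put on the summit in place of the peak edge. The part of the repeat in the MED16 result was not tested.

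Sp1 WT occupied 23 of the 59 genes (39.0%), against 23.7% of all protein-coding genes. The Sp1 DBD occupied 15 (25.4%), against 16.1%, and EWS IDR-Sp1 DBD occupied 9 (15.3%), against 11.1%. All 15 genes of the Sp1 DBD list and all 9 of the EWS IDR-Sp1 DBD list were among the 23 of Sp1 WT. The share of all genes includes genes that U2OS cells do not express, and expression was not measured in this series.

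The lists of endogenous Sp1 were shorter and occupied 4 to 9 of the 59 genes. Rabbit anti-V5 gave 4 in the parental line (6.78%, against 10.4% of all genes), 6 in the Sp1 WT line (10.2%, against 8.66%), 7 in the Sp1 IDR-LacI line (11.9%, against 11.1%) and 9 in the Sp1 IDR-CTCF DBD line (15.3%, against 11.1%). Mouse anti-V5 gave 6 (10.2%, against 9.75%), 5 (8.47%, against 6.81%), 6 (10.2%, against 8.80%) and 5 (8.47%, against 7.34%) in the same order of lines. At these counts a single gene is 1.69% of the 59, and in 6 of the 8 lists the share of the 59 genes lay within 1.69 percentage points of the share of all genes.

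Lists of constructs without the Sp1 DBD occupied few of the genes or none. The CTCF DBD list held 3 of them (5.08%, against 1.88%) and the Sp1 IDR-CTCF DBD list 1 (1.69%, against 0.574%). The Sp1 IDR-LacI anti-FLAG list held 0, against 0.00499% of all genes, which is 1 gene. The lists of LacI, the Sp1 DBD Mutant, SNAPf-NLS and both parental anti-FLAG controls held 0 of the 59 and 0% of all genes.

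**Figure D1:**
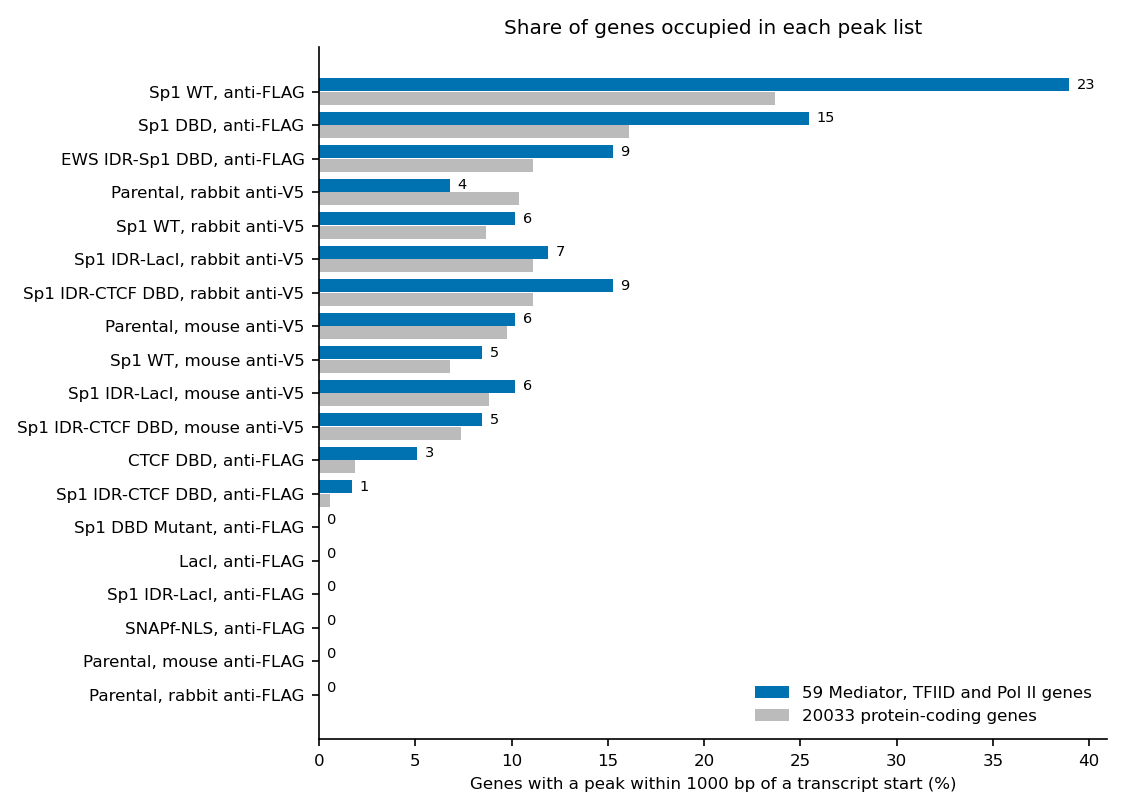
Share of genes with a peak within 1000 bp of a transcript start in each of the 19 lists, in percent, for the 59 Mediator, TFIID and Pol II genes (blue, with the number of genes) and for 20033 protein-coding genes (grey). In the 3 lists of transgenes with the Sp1 DBD the blue bars, 23, 15 and 9 genes, are longer than the grey bars, and among the anti-V5 lists the difference runs from 6.78% against 10.4% to 15.3% against 11.1%.

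By complex, Sp1 WT occupied 12 of 33 Mediator genes (36.4%), 7 of 14 TFIID genes (50.0%) and 4 of 12 Pol II genes (33.3%), against 23.7% of all genes. The Sp1 DBD occupied 8 Mediator, 3 TFIID and 4 Pol II genes, against 16.1% of all genes, and EWS IDR-Sp1 DBD occupied 3, 2 and 4, against 11.1%. The Pol II genes were the same 4 in all 3 lists as deposited. Of all genes with a Sp1 WT peak, 54.5% had a Sp1 DBD peak and 37.8% an EWS IDR-Sp1 DBD peak. In lists of equal length, described below, the 3 lists held 6, 4 and 2 Mediator genes, 1 TFIID gene each, and 4, 3 and 3 Pol II genes, and at an IDR limit of 0.01 no Pol II gene was left in EWS IDR-Sp1 DBD.

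In Mediator, Sp1 WT occupied 3 of 7 head genes, 4 of 9 middle genes, 4 of 9 tail genes, 1 of 7 kinase module genes and not the scaffold gene MED14. The head genes were MED6, MED11 and MED20. The middle genes were MED7, MED10, MED19 and MED26, the tail genes MED15, MED16, MED25 and MED29, and the kinase gene CDK19, the paralog of CDK8.

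Ranks are given as percentiles of the peaks of a list by −log10 p-value, so that 100 is the strongest peak of that list. The percentile of the merged peak, which carries the smaller of the replicate values, comes first, followed by the percentile by each replicate's value.

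MED16, a tail subunit, ranked at 97.4 in the Sp1 WT list (97.3 and 96.3 in the replicates), at rank 137 of 5151. MED20, a head subunit, ranked at 95.7 (95.7 and 93.0), and MED7, which joins the middle module, at 88.4 (88.3 and 71.9). MED6, a conserved head subunit, ranked at 86.3 (86.2 and 69.1), and MED15, a tail subunit that binds activators, at 78.4 (78.0 and 70.7). These 5 were the highest ranked Mediator genes and were above the median of all occupied genes, 54.8, in both replicates.

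The other occupied Mediator genes spread over the whole list. MED19 ranked at 74.2 (73.8 and 85.3) and MED29 at 64.3 (63.8 and 61.5). MED25, a tail subunit that activators contact, ranked at 73.2 but differed between replicates (80.6 and 40.4), as did CDK19 at 45.8 (45.8 and 70.9). MED26, through which Mediator contacts elongation factors, ranked at 16.02 (16.02 and 35.1) and MED10, a middle subunit, at 4.15 (4.15 and 3.23), near the end of the list in both replicates.

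In TFIID, Sp1 WT occupied TBP and 6 of 13 TAF genes. TAF9, a histone-fold subunit that pairs with TAF6, ranked at 82.3 (82.1 and 69.9), and TAF6 itself at 55.8 (55.4 and 29.9). TAF5, a WD40-repeat subunit of the core, ranked at 40.9 (40.9 and 55.5) and TAF8, the histone-fold partner of TAF10, at 34.4 (34.4 and 40.0). TAF9 was therefore the only TFIID gene above the median of all occupied genes in both replicates.

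TBP, the subunit that binds the TATA box, ranked at 22.0 (22.0 and 12.9). TAF2, which contacts the initiator, ranked at 8.48 (8.48 and 7.43), and TAF11, the partner of TAF13, at 6.61 (6.61 and 9.60). The peaks of these 3 genes lay in the lowest 25% of the list in both replicates. By merged peaks, 21.8% of all occupied protein-coding genes lay there.

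In Pol II, Sp1 WT occupied 3 of the 7 genes for subunits of Pol II alone and 1 of the 5 for subunits that Pol I and III share. POLR2I, the small subunit known as RPB9, ranked at 94.8 (94.8 and 85.9). POLR2H, the shared subunit, ranked at 79.6 (79.2 and 53.0), and POLR2G, part of the stalk, at 78.3 (77.9 and 89.8). POLR2A, the largest catalytic subunit, ranked at 75.8 (81.2 and 43.4). The merged peaks of all 4 were in the highest 25% of the list, against 29.0% of all occupied protein-coding genes. In the second replicate 2 of the 4, POLR2H and POLR2A, were not.

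Over the 23 occupied genes the median percentile in the Sp1 WT list was 73.2, against 54.8 over the 4744 occupied protein-coding genes. The median of the 23 by the value of the first replicate was 73.8 and by that of the second 58.5, against 54.8 and 56.2 for all occupied genes, so that the difference from all genes was smaller in the second replicate. By complex the median was 73.7 for Mediator (75.9 and 69.9 in the replicates), 34.4 for TFIID (34.4 and 29.9) and 79.0 for Pol II (80.2 and 69.4). TFIID had the lowest median rank of the 3 complexes in both replicates. It also had the largest share of occupied genes in the list as deposited, an order that turned when weak peaks were left out. At an IDR limit of 0.01 the shares in Sp1 WT were 14.3% for TFIID, 27.3% for Mediator and 25.0% for Pol II, and at equal length 7.14%, 18.2% and 33.3%.

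**Figure D2:**
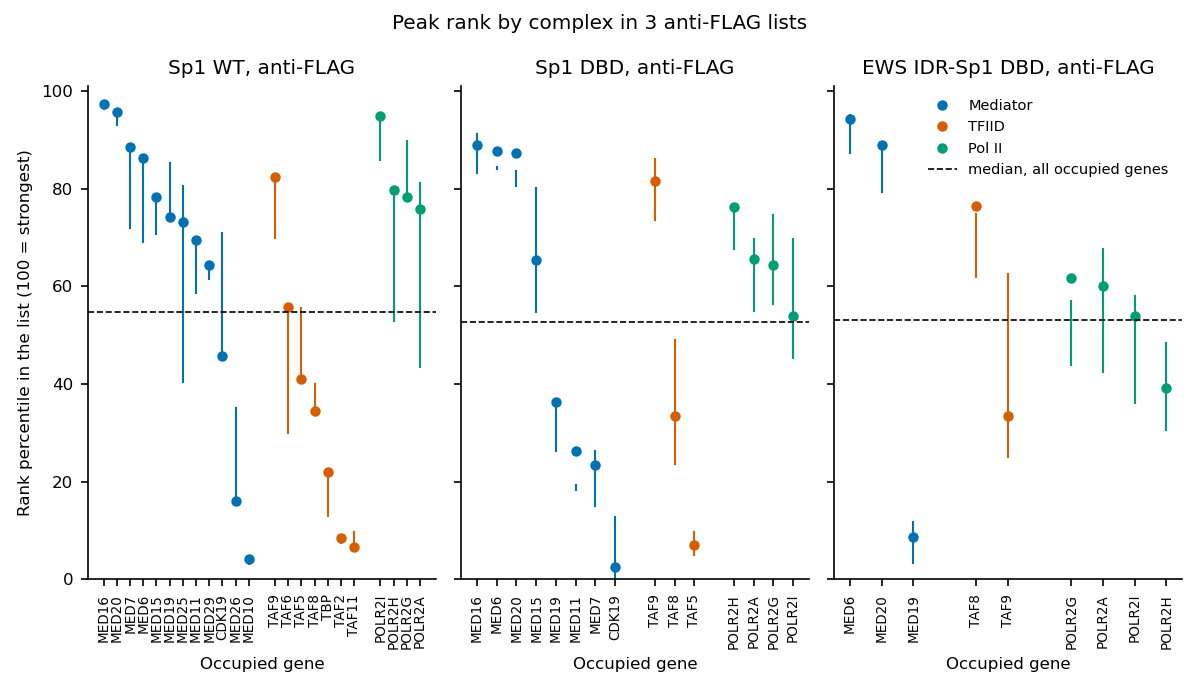
Rank percentile of the peak at each occupied gene in 3 anti-FLAG lists (y axis, 100 is the strongest peak of that list), by complex. Points are the merged peak, vertical lines run between the percentiles by each replicate's value, and the dashed line is the median of all occupied protein-coding genes. In the Sp1 WT panel the 4 Pol II points lie at 75.8 and above, and 5 of 7 TFIID points lie below the dashed line.

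Of the 23 genes with a Sp1 WT peak, 15 also had a Sp1 DBD peak (65.2%, against 54.5% of all genes with a Sp1 WT peak) and 9 had an EWS IDR-Sp1 DBD peak (39.1%, against 37.8%). In lists of equal length the second share was 45.5%, against 48.9%, and at an IDR limit of 0.01 it was 14.3%, against 22.9%. The genes with a peak in Sp1 WT and in neither of the others were MED10, MED25, MED26 and MED29 in Mediator and TBP, TAF2, TAF6 and TAF11 in TFIID. In the Sp1 WT list 5 of these 8 ranked in the lowest 25% and none in the highest 25%, with MED25, MED29 and TAF6 between. Of all occupied protein-coding genes, 21.8% were in the lowest 25% of that list and 29.0% in the highest. In the lists as deposited, no gene of the 59 had a Sp1 DBD or EWS IDR-Sp1 DBD peak without a Sp1 WT peak. Of all protein-coding genes in these lists, 632 of 3218 and 434 of 2227 had none in Sp1 WT. At an IDR limit of 0.01, the Sp1 DBD list held POLR2A and the EWS IDR-Sp1 DBD list held TAF8, while Sp1 WT held neither. At equal length, EWS IDR-Sp1 DBD held TAF8 and Sp1 WT did not.

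The 9 genes occupied in all 3 lists were MED6, MED19, MED20, TAF8, TAF9, POLR2A, POLR2G, POLR2H and POLR2I. Their percentiles are relative to lists of different length (5151, 3277 and 2535 peaks) and are set side by side for that reason only. MED20 ranked at 95.7 in Sp1 WT, at 87.2 in the Sp1 DBD (83.7 and 80.5 in the replicates) and at 89.0 in EWS IDR-Sp1 DBD (88.2 and 79.4). MED6 ranked at 86.3, 87.8 (84.3 and 83.9) and 94.3 (95.1 and 87.2). These 2 head genes stayed among the stronger peaks of every list.

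Of the 9, MED19 had the widest span of merged percentiles, at 74.2 in Sp1 WT, 36.3 in the Sp1 DBD (26.3 and 36.9) and 8.64 in EWS IDR-Sp1 DBD (11.7 and 3.27), with no overlap between the replicates of the 3 lists. POLR2I ranked at 94.8 in Sp1 WT, 53.9 in the Sp1 DBD (45.2 and 69.6) and 53.9 in EWS IDR-Sp1 DBD (58.0 and 36.1). Its Sp1 WT values lay above those of both other lists, which overlapped each other.

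The order of TAF8 and TAF9 differed between lists. TAF9 ranked at 82.3, 81.6 (86.1 and 73.5) and 33.5 (25.0 and 62.5), and TAF8 at 34.4, 33.4 (48.9 and 23.6) and 76.4 (74.8 and 61.8). The EWS IDR-Sp1 DBD values of TAF9 were below those of both other lists and those of TAF8 above them, although the replicates of TAF9 in that list lay far apart.

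The remaining Pol II genes had lower merged percentiles in the Sp1 DBD and EWS IDR-Sp1 DBD lists than in Sp1 WT, the longest list. Their ranks in the 3 lists did not all go that way. The ranks were 1245, 1132 and 1013 for POLR2A and 1118.5, 1171.5 and 972 for POLR2G. For POLR2H they were 1050, 782 and 1541. POLR2A ranked at 65.5 (69.6 and 54.9) in the Sp1 DBD and 60.1 (67.7 and 42.4) in EWS IDR-Sp1 DBD, with replicates that overlapped those of Sp1 WT. POLR2G ranked at 64.3 (56.4 and 74.7) and 61.7 (57.1 and 43.8), below both of its Sp1 WT replicates. POLR2H ranked at 76.2 (76.8 and 67.6) in the Sp1 DBD, within the spread of its Sp1 WT replicates, and at 39.3 (30.5 and 48.4) in EWS IDR-Sp1 DBD, below it.

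The other 6 genes shared by Sp1 WT and the Sp1 DBD were MED7, MED11, MED15, MED16, CDK19 and TAF5. MED16 ranked at 89.0 in the Sp1 DBD (91.2 and 83.2) and MED15 at 65.4 (80.1 and 54.7). MED7 ranked at 23.4 (15.1 and 26.3), far below its Sp1 WT replicates, and MED11, a head subunit, at 26.3 (19.2 and 18.3) against 69.4 in Sp1 WT (69.0 and 58.5). CDK19 and TAF5 were near the end of the Sp1 DBD list, at 2.47 (0.229 and 12.8) and 7.05 (9.72 and 5.07).

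The median percentile of the occupied genes was 64.3 in the Sp1 DBD list (56.4 and 54.9 by replicate, against 52.7 for all occupied genes) and 60.1 in EWS IDR-Sp1 DBD (58.0 and 48.4, against 53.1). Both medians were lower by either replicate alone than by the merged value. By the second replicate of EWS IDR-Sp1 DBD the median of all occupied genes was 53.6, so that the median of the 9 genes, 48.4, was then the lower one. With canonical starts alone the Sp1 DBD median was 45.1. When every longer list was reduced to its 1332 highest ranked peaks, the length of the shortest anti-V5 list, Sp1 WT occupied 11 of the 59 genes (18.6%, against 7.103% of all genes), the Sp1 DBD 8 (13.6%, against 6.93%) and EWS IDR-Sp1 DBD 6 (10.2%, against 6.15%).

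**Figure D3:**
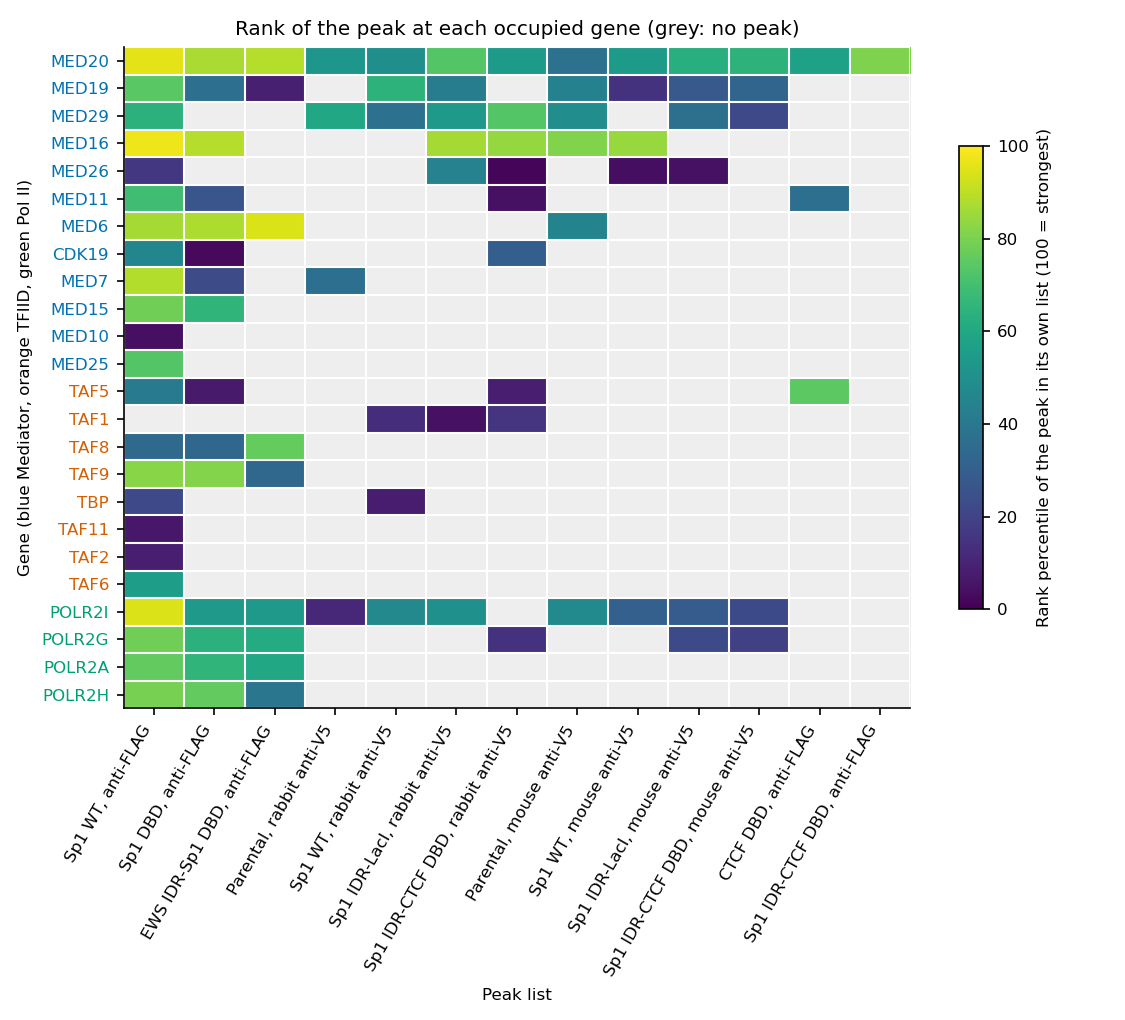
Rank percentile of the peak (colour, 100 is the strongest peak of its list) at the 24 genes occupied in at least 1 list (rows, blue names Mediator, orange TFIID, green Pol II), in the 13 lists that occupied any of them (columns). Grey cells have no peak within 1000 bp. The MED20 row is filled in all 13 columns, TAF1 is filled in 3 rabbit anti-V5 columns alone, and POLR2A and POLR2H are filled in the 3 columns of transgenes with the Sp1 DBD alone.

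Summits lay just upstream of the starts. In the Sp1 WT list the median position of the summit from the nearest start was -100 bp over the 23 genes (-105 and -96 bp by the summits of either replicate), against -87 bp over all occupied genes. It was -97 bp for Mediator, -37 bp for TFIID and -129.5 bp for Pol II. Of the 23 summits, 17 lay upstream and 6 downstream of the start (26.1% downstream, against 29.6% of all occupied genes). Of the 23, 9 were within 100 bp of it (39.1%, against 40.6% of all occupied genes). A start lay inside the peak for 19 of the 23 genes, a smaller share than for all occupied genes (4379 of 4744).

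The downstream summits were those of MED11 (156 bp), MED15 (120 bp), TAF5 (537 bp), TAF6 (82 bp), TAF11 (83 bp) and POLR2H (70 bp). Each of them was downstream in both replicates. These distances are to the nearest annotated start, and the summits of MED15, TAF6 and TAF11 lay upstream of the canonical start. For MED15 the summit was at position 20496033 and the canonical start at 20507610, and with canonical starts alone Sp1 WT did not occupy MED15. The summit of TAF9 was at -128 bp in either replicate, and that of MED20 at -157 and -153 bp, whereas the summits of TBP lay at -691 and -223 bp and those of MED19 at 12 and -200 bp.

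In the annotation, 9 of the 23 Sp1 WT summits lay in an exon of the gene, 3 in an intron and 11 outside its transcripts. The summit of POLR2A lay inside the neighbouring gene ZBTB4 and that of POLR2I inside TBCB, while that of TAF9 lay inside both AK6 and RAD17.

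In the Sp1 DBD list the median summit was at -121 bp (-111 and -125 bp by replicate), against -86.5 bp for all occupied genes, and in EWS IDR-Sp1 DBD it was at -122 bp (-140 and -124 bp), against -96 bp. The summits of some shared genes lay close together, with TAF9 at -128, -121 and -122 bp and POLR2A at -232, -229 and -256 bp in the 3 lists. For POLR2I and CDK19 the merged summits lay apart, but the replicate summits overlapped between lists. POLR2I was at -158 bp (-177 and -139 bp), -312 bp (-450 and -175 bp) and -259 bp (-171 and -347 bp) in the 3 lists. CDK19 was at -100 bp in Sp1 WT (-159 and -41 bp) and 50 bp in the Sp1 DBD (227 and -127 bp). TAF5 lay apart in both replicates, at 537 bp in Sp1 WT (552 and 523 bp) and 33 bp in the Sp1 DBD (80 and -14 bp). For the TAF8 peak of the Sp1 DBD list, 2386 bp wide, the merged summit at -914 bp was far from those of its replicates, -1688 and -1676 bp.

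**Figure D4:**
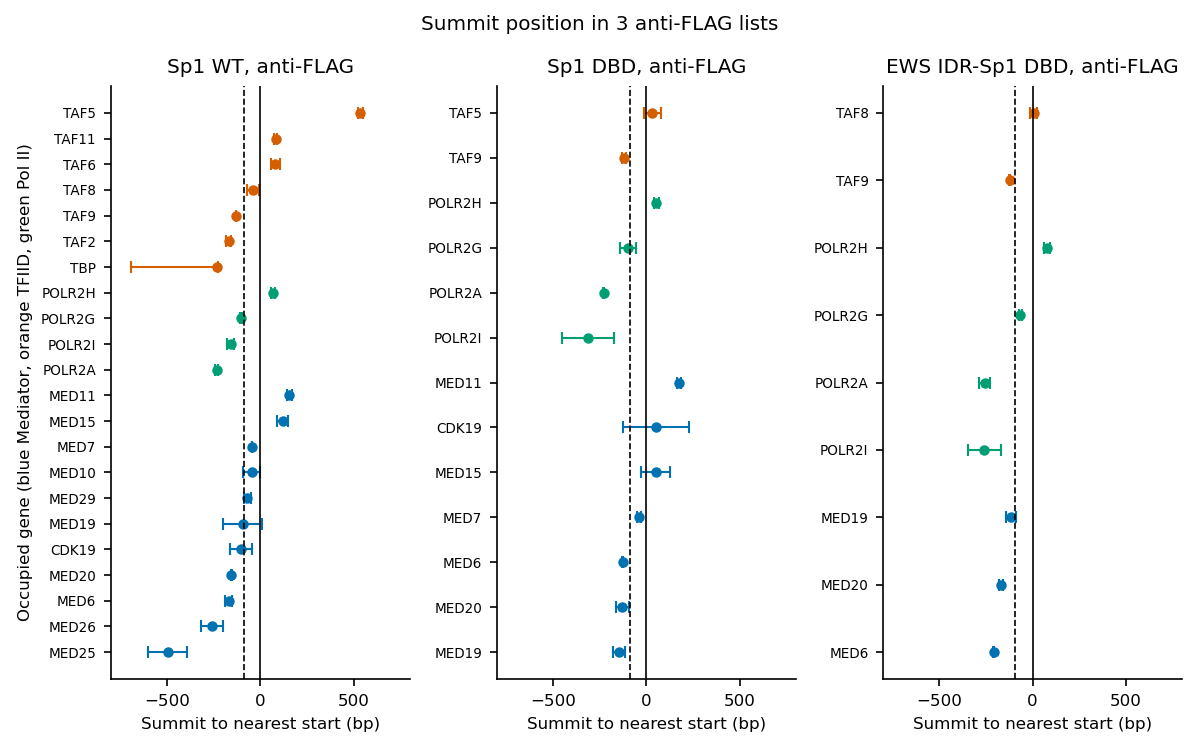
Position of the summit relative to the nearest transcript start in 3 anti-FLAG lists (x axis, bp, positive downstream), for each occupied gene. Points are merged summits, bars join the summits of both replicates, and the dashed line is the median of all occupied genes. MED16 in Sp1 WT and the Sp1 DBD, and TAF8 in the Sp1 DBD, lie beyond 800 bp and are not drawn. Most points lie left of 0, with TAF5 at 537 bp in Sp1 WT and 33 bp in the Sp1 DBD.

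A GC box within 100 bp of the Sp1 WT summit was present for 12 of the 23 genes (52.2%, against 74.5% of all occupied genes). The share was 8 of 12 for Mediator, 2 of 7 for TFIID and 2 of 4 for Pol II. In the Sp1 DBD list it was 10 of 15 (66.7%, against 77.2%) and in EWS IDR-Sp1 DBD 6 of 9 (66.7%, against 78.6%). Within 200 bp of the Sp1 WT summit the share was 20 of 23 (87.0%, against 92.5%), and within 50 bp it was 6 of 23 (26.1%, against 48.3%).

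Rank and the number of GC boxes did not go together gene by gene. The summit windows of MED16, POLR2I and POLR2A held 0 GC boxes, and those of MED26 and MED10, at the low end of the list, held 7 and 3. MED26 was 1 of 2 genes of the 23 with at least 4 GC boxes at the summit (8.70%, against 11.7% of all occupied genes), the other being POLR2G with 4. POLR2I was the single gene of the 23 with at least 4 CCAAT boxes within 100 bp of the summit, a number reached at 1.52% of all occupied genes, and 3 of its 4 are in the printed window. A CCAAT box (CCAAT on either strand) was within 100 bp of the summit for 7 of the 23 genes (30.4%, against 33.6%).

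In the RefSeq promoter windows, a GC box was present for 29 of the 45 genes with a sequence (64.4%, against 59.2% of 15345 protein-coding promoters). The core of ETS factor sites, CCGGAAG, was present for 14 of 45 (31.1%, against 14.4%), and a core of YY1 sites for 5 (11.1%, against 1.40%), namely MED1, MED16, MED18, MED25 and TAF5. The CCAAT box was present for 14 (31.1%, against 36.6%) and the TATA box, TATAAA, for 2 (4.44%, against 9.63%), MED7 and MED16. A palindromic NRF1 core was present for 2 (4.44%, against 1.72%), MED18 and POLR2F. Both strands were searched for each motif, none of these motifs contains another although neighbouring sites can share bases, and a match is a description of the sequence and not a measured site. The median GC content of the 45 windows was 59.3%, against 63.0%.

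Sp1 WT occupied 3 of the 16 genes whose promoter window held no GC box (18.8%, against 11.9% of all such genes) and 14 of the 25 with 1 to 3 (56.0%, against 31.2%). It occupied 1 of the 4 with 4 or more (25.0%, against 43.2%). The 4 were MED13L with 4, MED31 with 4, TAF4 with 7 and MED26 with 7, of which MED26 was occupied. GC boxes were counted here in 1 window per gene, whereas occupancy was called at any start. Among these occupied genes, the Sp1 WT summit lay in the window for MED7, MED10, MED19, MED29, TAF6 and POLR2A alone.

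Many of these genes share a promoter region with a neighbour, so that a peak cannot be given to 1 gene. A start of another protein-coding gene lay within 1000 bp of a start for 15 of the 23 genes with a Sp1 WT peak (65.2%, against 35.7% of all occupied genes). Of the 24 genes of the 59 with such a start on the other strand, Sp1 WT occupied 14 (58.3%, against 40.3% of all genes with such a neighbour), and of the 35 without, 9 (25.7%, against 20.1%). The same shares were 29.2% and 5.71% in EWS IDR-Sp1 DBD, against 18.1% and 9.62%.

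For 4 of the 15, the start of the neighbour was nearer to the Sp1 WT summit than that of the gene itself. Among them were MED25 (495 bp to its own start, 411 bp to that of FUZ), POLR2A (232 bp, and 129 bp to ZBTB4) and POLR2I (158 bp, and 68 bp to TBCB). For 9 the own start was nearer, and for MED20 and MED26 it was shared with an overlapping gene model. The divergent neighbour of MED20 is BYSL, whose start was 205 bp from the summit, against 155 bp for MED20.

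Endogenous Sp1, read by anti-V5, occupied 14 of the 59 genes in at least 1 of the 8 lists. In none of them were 45 (76.3%), against 84.9% of all protein-coding genes. MED20 was occupied in all 8, as were 4.22% of all protein-coding genes. MED29 and POLR2I were occupied in 7 (3.39%, against 1.73%) and MED19 in 6 (1.69%, against 1.23%). MED16 and MED26 were occupied in 4 (3.39%, against 1.11%) and POLR2G and TAF1 in 3 (3.39%, against 1.34%). CDK19, MED6, MED7, MED11, TAF5 and TBP were occupied in 1 each (10.2%, against 2.601%).

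The MED20 peak ranked between 37.7 and 73.2 in the 8 anti-V5 lists, with the lowest value in parental mouse anti-V5 (37.7, 48.5 in the replicates) and the highest in rabbit anti-V5 of the Sp1 IDR-LacI line (73.0 and 59.5). The MED29 peak ranked between 21.9 and 73.4 and that of POLR2I between 11.6 and 50.0. All 3 thus had lower percentiles in the anti-V5 lists that held them than in the longer Sp1 WT anti-FLAG list, with an exception for MED29. In rabbit anti-V5 of the Sp1 IDR-CTCF DBD line it was at 73.4 (71.1 and 62.2), against 64.3. By rank, MED29 was at 1837.5 in Sp1 WT and between 578 and 1125 in the anti-V5 lists. MED20 was at 221 in Sp1 WT and between 502 and 1141 in the anti-V5 lists, and POLR2I at 267 and between 925 and 1758.

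MED16 kept a high rank in the anti-V5 lists that held it, from 81.0 to 86.6, with summits between -1929 and -1889 bp, the same repeat as in the Sp1 WT list. MED26 ranked from 1.61 to 44.4 in its 4 lists. TAF1, the largest subunit of TFIID, was occupied in anti-V5 lists alone, in rabbit anti-V5 of the Sp1 WT, Sp1 IDR-LacI and Sp1 IDR-CTCF DBD lines. It ranked at 12.99 (12.99 and 33.1), 4.68 (4.68 and 2.78) and 15.1 (15.1 and 31.2), with summits at -78, -130 and -94 bp.

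In the parental line, rabbit anti-V5 occupied MED7, MED20, MED29 and POLR2I, and mouse anti-V5 occupied MED6, MED16, MED19, MED20, MED29 and POLR2I. No TFIID gene was occupied by either, and all of these genes had a Sp1 WT peak. Of the 23 genes with a Sp1 WT peak, 4 had a peak in parental rabbit anti-V5 (17.4%, against 36.6% of all genes with a Sp1 WT peak) and 6 in parental mouse anti-V5 (26.1%, against 35.0%). With rabbit anti-V5, 5 of the 23 had a peak in the Sp1 WT line (21.7%, against 30.6%), 6 in the Sp1 IDR-LacI line (26.1%, against 39.1%) and 8 in the Sp1 IDR-CTCF DBD line (34.8%, against 39.2%). With mouse anti-V5 the numbers were 5 (21.7%, against 24.2%), 6 (26.1%, against 31.5%) and 5 (21.7%, against 25.9%). The share of the 23 genes was below that of all genes with a Sp1 WT peak in each of the 8 lists.

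In the lists of endogenous Sp1 with at least 5 of the genes, the median rank of the occupied genes was between 15.1 and 50.0, below that of all occupied genes, 50.8 to 53.3, in each of the 7 by the merged values. In rabbit anti-V5 of the Sp1 IDR-LacI line the second replicate gave 59.5, against 51.4 for all occupied genes, so that the direction turned there. These medians rest on 5 to 9 genes. The median summit was between -134 and -67 bp in these lists, against -124 to -106 bp for all occupied genes.

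Of the constructs without the Sp1 DBD, the CTCF DBD occupied MED11, MED20 and TAF5. MED20 ranked at 57.3 (57.3 and 63.9) of its 649 peaks, with the summit at -193 bp, and TAF5 at 74.7 (74.2 and 25.0), with the summit at 527 bp. MED11 ranked at 36.5 (36.5 and 17.4), with the summit at 327 bp. Sp1 IDR-CTCF DBD occupied MED20 alone, at 80.7 of 166 peaks (67.5 and 81.3), with the summit at -172 bp, against -155 bp in Sp1 WT. MED20 was thus occupied in 13 lists, all 11 lists of proteins with the Sp1 DBD (as were 2.07% of all genes) and both lists of the CTCF DBD.

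Other genes of the transcription machinery were counted in the same way, beside the same shares of all genes (23.7% in Sp1 WT, 16.1% in the Sp1 DBD, 11.1% in EWS IDR-Sp1 DBD, 10.4% in parental rabbit and 9.75% in parental mouse anti-V5). Of 17 genes for general factors (TFIIA, TFIIB, TFIIE, TFIIF and TFIIH), Sp1 WT occupied 3 (17.6%), GTF2A1, GTF2H1 and GTF2H4, and the Sp1 DBD and EWS IDR-Sp1 DBD occupied 0. Of 10 genes for pausing and elongation factors, Sp1 WT occupied 5 (50.0%), CDK9, HEXIM1, NELFCD, NELFE and SUPT5H, and the Sp1 DBD and EWS IDR-Sp1 DBD each occupied 2 (20.0%), CDK9 and CCNT2. Of 18 genes for subunits of Pol I and III alone, the 3 lists occupied 9 (50.0%), 3 (16.7%) and 1 (5.56%), with POLR1D in all 3. Of 8 paralogs of TBP and the TAFs, Sp1 WT and the Sp1 DBD occupied 1 (12.5%), TAF6L, and EWS IDR-Sp1 DBD 0. In parental rabbit anti-V5 the 4 groups had 1, 4 (40.0%), 1 and 0 genes with a peak, and in parental mouse anti-V5 0, 3 (30.0%), 2 and 1. CCNT2 had a Sp1 DBD peak and no Sp1 WT peak, unlike any of the 59 genes in the lists as deposited.

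The calls closest to the threshold of 1000 bp were those of MED16. Its peak edge was 461 bp from a start in Sp1 WT and 823 to 907 bp in the 4 anti-V5 lists that held it. In rabbit anti-V5 of the Sp1 WT line it was 1250 bp away and in parental rabbit anti-V5 1422 bp, so that MED16 was not called there although these peaks, at ranks 425 of 1790 and 530.5 of 1987, lay on the same region. In the Sp1 DBD list MED16 had, beside the peak on the repeat, a second peak at chr19:892730-893384 over its canonical start, at rank 3186.5 of 3277. The next genes outside were TAF13, 3670 bp from a Sp1 WT peak, and TAF10, 4459 bp from one.

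The 35 genes occupied in no list were, in Mediator, MED8, MED17, MED18 and MED22 of the head, MED1, MED4, MED9, MED21 and MED31 of the middle, the scaffold gene MED14, MED23, MED24, MED27, MED28 and MED30 of the tail, and CDK8, CCNC, MED12, MED12L, MED13 and MED13L of the kinase module. In TFIID they were TAF3, TAF4, TAF7, TAF10, TAF12 and TAF13. In Pol II they were POLR2B, POLR2C, POLR2D, POLR2E, POLR2F, POLR2J, POLR2K and POLR2L. A peak in at least 1 of the 11 lists of proteins with the Sp1 DBD was thus present for 24 of the 59 genes (40.7%), against 28.9% of all protein-coding genes. A gene without a peak was not called reproducibly at the depth of these lists, which does not show that Sp1 is absent there.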

How the data were processed

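CUT&RUN was measured in 38 samples of U2OS lines that form 19 groups of 2 replicates. Upstream, the authors used cutadapt 2.6 for trimming, Bowtie2 2.3.5.1 for alignment (hg38) and SAMtools 1.9 for duplicate removal. Their peaks come from MACS3 (given as 2.2.7.1), run on each replicate with pooled controls, and the lists retain those whose irreproducible discovery rate (IDR) was 0.1 or less. The deposited lists hold for each peak the −log10 p-value of the merged peak, the smaller of the replicate values, and that of each replicate. The authors' lists also give a score, the −log10 of the IDR. Which labelled replicate came first in a list is not given in the sources used here, nor whether blacklisted regions were removed from peaks. The 6 deposited tables of the authors' own comparisons of Sp1 WT with other constructs were not used. Read depth was not analysed here, so no interval rests on it.

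Peaks were assigned to the 20033 protein-coding genes of GENCODE 44 on hg38 within 1000 bp of any transcript start, with Python 3.11.15, NumPy 2.4.6, pandas 2.3.3 and pysam 0.24.0. Occupied genes were the same by bedtools 2.31.1 in 19 of 19 lists, and the code was tested on simulated data. A gene with several peaks was given the highest ranked one. Motifs were searched within 100 bp of the summit and in RefSeq promoter windows (GRCh38.p14). Samples were grouped by their labels and no p-value was computed. The genes named were the 5 highest ranked of each complex in Sp1 WT, those occupied in Sp1 WT but not with the other transgenes that carry the Sp1 DBD, those in all 8 or only in anti-V5 lists, those in lists without the Sp1 DBD, those next to the distance limit and those in no list. Other genes were named after their values had been seen. The members, gene lists and this rule were chosen with earlier results of these data known. Alternatives were other distance limits, transcript starts, IDR limits, list lengths, replicates and motif windows.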

Additional observations from a re-analysis of the deposited data

Results flagged for a closer look

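In 2 of the 3 lines with a transgene the number of occupied genes went in opposite directions from the parental line by rabbit and mouse anti-V5. These numbers do not allow for list length. The difference was not tested, because each value comes from a single list. In the Sp1 WT line the number of Mediator, TFIID and Pol II genes occupied by endogenous Sp1 was 2 higher than in the parental line by rabbit anti-V5 (6 against 4) and differed by -1 by mouse anti-V5 (5 against 6). By rabbit anti-V5 the shares were 10.2% against 6.78%, and those of all genes 8.66% against 10.4%. By mouse anti-V5 they were 8.47% against 10.2%, and those of all genes 6.81% against 9.75%. Relative to all genes, the 59 genes thus stood higher than in the parental line by both antibodies. MED19, TAF1 and TBP were added and MED7 was missing by rabbit anti-V5, and MED26 was added and MED6 and MED29 were missing by mouse anti-V5.

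In the Sp1 IDR-CTCF DBD line the number was 5 higher by rabbit anti-V5 (9 against 4) and differed by -1 by mouse anti-V5 (5 against 6). By rabbit anti-V5 the shares were 15.3% against 6.78%, and those of all genes 11.1% against 10.4%. By mouse anti-V5 they were 8.47% against 10.2%, and those of all genes 7.34% against 9.75%. Relative to all genes, the 59 genes stood higher than in the parental line by both antibodies here too. CDK19, MED11, MED16, MED26, POLR2G, TAF1 and TAF5 were added by rabbit anti-V5, of which MED16 had a peak on the same repeat in the parental list, beyond 1000 bp of a start. MED7 and POLR2I were missing by rabbit anti-V5. By mouse anti-V5, POLR2G was added and MED6 and MED16 were missing. At an IDR limit of 0.05 the rabbit list of this line held 5 of the genes, and at 0.01 it held 2, as did the parental list. In the Sp1 IDR-LacI line the numbers were 7 against 4 by rabbit and 6 against 6 by mouse anti-V5.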

How the results depend on the processing

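Several directions turned. By the second replicate alone the median rank in EWS IDR-Sp1 DBD was 48.4 against 53.6, and in rabbit anti-V5 of the Sp1 IDR-LacI line 59.5 against 51.4. TFIID went from the largest share in Sp1 WT to the smallest at an IDR limit of 0.01 and at equal length. The Sp1 IDR-CTCF DBD line had 9 genes against 4 in the parental line by rabbit anti-V5, and 2 against 2 at 0.01. As deposited, all of the 59 genes with a Sp1 DBD or EWS IDR-Sp1 DBD peak also had a Sp1 WT peak. That no longer held for POLR2A and TAF8 at 0.01, nor for TAF8 at equal length. The numbers of occupied genes stayed within 1.5 times under distance limits of 500 and 5000 bp, a limit on the summit in place of the peak edge, canonical or protein-coding starts alone, removal of peaks shared with control lists, and the peak interval of either replicate alone. The last used peaks that had passed IDR in both replicates, so it was not a new call. The control lists (SNAPf-NLS and both parental anti-FLAG) held no peak within 1000 bp of a protein-coding start. Removing peaks shared with them could therefore change few of the numbers. Lists differ in length and have no replicates of their own, and read depth, expression and the owner of a shared promoter were not analysed here. No paired analysis was possible because the results come from no test and each list joins both replicates.

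At an IDR limit of 0.01, Sp1 WT occupied 14 of the 59 genes (23.7%, against 13.3% of all genes), the Sp1 DBD 8 and EWS IDR-Sp1 DBD 3. TFIID genes were then 2, 1 and 1, Mediator genes in the Sp1 DBD list 4 and Pol II genes in EWS IDR-Sp1 DBD 0. Of the 14, the Sp1 DBD occupied 7, EWS IDR-Sp1 DBD 2 and parental rabbit anti-V5 2. Rabbit anti-V5 gave 2 in the parental, 3 in the Sp1 WT and 2 in the Sp1 IDR-CTCF DBD line, and mouse anti-V5 gave 2 in each of the Sp1 WT, Sp1 IDR-LacI and Sp1 IDR-CTCF DBD lines. The CTCF DBD and Sp1 IDR-CTCF DBD lists then held 0. At 0.05, rabbit anti-V5 of the Sp1 IDR-CTCF DBD line gave 5 and mouse anti-V5 of the Sp1 WT line 3. These limits leave fewer peaks. In lists of equal length, Sp1 WT occupied 11 genes (6 Mediator, 1 TFIID), the Sp1 DBD 8 (4 Mediator, 1 TFIID), EWS IDR-Sp1 DBD 1 TFIID gene and rabbit anti-V5 of the Sp1 IDR-CTCF DBD line 3. Of the 11, the Sp1 DBD occupied 8, EWS IDR-Sp1 DBD 5 and parental rabbit anti-V5 2.

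By either replicate alone the median rank percentile lay between 58.5 and 73.8 in Sp1 WT, 54.9 and 56.4 in the Sp1 DBD and 48.4 and 57.9 in EWS IDR-Sp1 DBD. In rabbit anti-V5 it lay between 50.0 and 59.5 in the Sp1 IDR-LacI and 15.1 and 20.3 in the Sp1 IDR-CTCF DBD line. In mouse anti-V5 it lay between 46.3 and 48.2 in the parental, 12.2 and 30.6 in the Sp1 WT, 28.4 and 30.0 in the Sp1 IDR-LacI and 10.3 and 22.6 in the Sp1 IDR-CTCF DBD line. At an IDR limit of 0.01 the median was 58.1 in Sp1 WT, 49.7 in the Sp1 DBD, 16.04, 32.8 and 62.0 in rabbit anti-V5 of the Sp1 WT, Sp1 IDR-LacI and Sp1 IDR-CTCF DBD lines, and 24.7, 57.9 and 21.8 in mouse anti-V5 of the parental, Sp1 WT and Sp1 IDR-LacI lines. At 0.05 it was 57.5 in the Sp1 DBD, 48.4 in EWS IDR-Sp1 DBD, 47.0 in rabbit anti-V5 of the Sp1 IDR-CTCF DBD line, and 40.9, 49.8 and 20.6 in mouse anti-V5 of the parental, Sp1 WT and Sp1 IDR-LacI lines. In the Sp1 DBD list it was 45.1 with canonical starts and 53.9 with the peak of the nearest summit. The cause was not tested.

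By either replicate alone the median summit lay between -125 and -111 bp in the Sp1 DBD, -140 and -124 bp in EWS IDR-Sp1 DBD, and, in mouse anti-V5, -129.5 and -129 bp in the parental, -159 and -137 bp in the Sp1 WT, -102.5 and -91.5 bp in the Sp1 IDR-LacI and -67 and -57 bp in the Sp1 IDR-CTCF DBD line. With canonical starts it was -148 bp in Sp1 WT, -142 bp in EWS IDR-Sp1 DBD, -197 bp in rabbit anti-V5 of the Sp1 WT line, and -126.5, -110, -121 and -89 bp in mouse anti-V5 of the parental, Sp1 WT, Sp1 IDR-LacI and Sp1 IDR-CTCF DBD lines. With the peak of the nearest summit it was -98 bp in the Sp1 DBD.

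The number of occupied genes with a GC box within 50 bp of the summit was 6 of 23 in Sp1 WT, 6 of 15 in the Sp1 DBD and 1 of 9 in EWS IDR-Sp1 DBD. It was 1 of 6 in rabbit anti-V5 of the Sp1 WT line. In mouse anti-V5 it was 1 of 6, 1 of 5 and 3 of 6 in the parental, Sp1 WT and Sp1 IDR-LacI lines. Within 200 bp it was 20 in Sp1 WT. With the longer box GGGGCGGGG it was 4, 3 and 1 in the anti-FLAG lists, 1, 1 and 2 in rabbit anti-V5 of the Sp1 WT, Sp1 IDR-LacI and Sp1 IDR-CTCF DBD lines, and 1 in each mouse anti-V5 list.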
